A study of Mus musculus with 12 samples.

Results

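The genes followed here handle iron inside the cell, and their levels were read from RNA-seq of irradiated hematopoietic stem cells (HSCs). They were 10 genes given as a list of names, and all were found among the 31272 gene names of the study. The list holds Tfrc, Steap3, Slc11a2 and Slc25a37 for uptake, Fth1 and Ftl1 for storage, Ncoa4 for release from storage, Slc40a1 for export, Hmox1 for heme breakdown and Ireb2 for regulation. HSCs were sorted from the bone marrow (BM) of WT mice, 3 libraries each of control mice (Ctrl), irradiated mice (IR) and the other two irradiated groups, Ab_IR and L_IR, with sorting 3 days after IR. Per the study's methods, sorted cells were Lineage- Sca-1+ c-Kit+ Flt3- CD34- and mice were on a C57BL/6 background. All groups share the WT genotype and no other allele or agent is given. What Ab and L stand for is not spelled out in the labels, nor whether the libraries of a group came from separate mice, so the p-values below measure the spread between these libraries, which may be technical.

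Cells take up iron bound to transferrin through the transferrin receptor, reduce it inside endosomes and pass it to the cytosol and to mitochondria, where heme is made. Spare iron is kept in ferritin, a shell of heavy and light chains, until the receptor NCOA4 carries ferritin to the lysosome for breakdown (ferritinophagy). When iron is scarce, iron regulatory proteins bind a stem-loop in certain mRNAs, the iron responsive element (IRE). Bound in the 5′ UTR they block translation, as in ferritin mRNA, and bound in the 3′ UTR they protect the transcript from decay, as in Tfrc mRNA.

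The IRE letters were searched in the annotated UTRs because they are the feature through which ferritin, ferroportin and the transferrin receptor answer to iron. The searched form was CNNNNNCAGTGN on the transcript's strand, with 5 of 5 bases of the upper stem and at least 4 of 6 bases of the lower stem pairing. It was found in 22 of 21877 genes with a coding transcript (0.101%), in 4 of the 10 genes followed here, and in 0 of the 49 further iron genes described later. No match in the other genes says only that letters with this pairing are not in their annotated UTRs. Sequences are from GRCm38 with GENCODE M21 UTRs, written 5′ to 3′ in the sense of the transcript, and capitals mark the loop.
Fth1, 5′ UTR, chr19:9982732-9982760, plus strand: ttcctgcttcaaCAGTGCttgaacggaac
Ftl1, 5′ UTR, chr7:45459779-45459807, minus strand: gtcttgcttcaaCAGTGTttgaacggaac
Slc40a1, 5′ UTR, chr1:45925465-45925493, minus strand: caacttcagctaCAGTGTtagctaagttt
Tfrc, 3′ UTR, chr16:32631219-32631247, plus strand: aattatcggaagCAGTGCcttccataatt
Tfrc, 3′ UTR, chr16:32631598-32631626, plus strand: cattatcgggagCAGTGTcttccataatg
Tfrc, 3′ UTR, chr16:32631663-32631691, plus strand: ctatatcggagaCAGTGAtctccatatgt
Tfrc, 3′ UTR, chr16:32631710-32631738, plus strand: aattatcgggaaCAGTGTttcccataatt
The 3 elements of Fth1, Ftl1 and Slc40a1 lie in the 5′ UTR and the 4 of Tfrc in the 3′ UTR.

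Levels are FPKM, that is, sequenced fragments scaled to gene length and to library size, and since no read counts came with them the depth is unknown. Per library, FPKM summed to 344338 to 405123, with 11467 to 12167 genes at 1 FPKM or more. Ctrl replicate 1 was unlike the rest, as 44.1% of its rows were at 0 and 24.7% to 27.3% of the rows of the other 11. Transcripts of heart muscle split the libraries in another way. Nppa, an atrial hormone gene, was at 51.16 to 63.92 FPKM in all IR libraries and Ctrl replicates 2 and 3, and at 0 to 0.26 FPKM in the remaining 7. All 8 heart genes listed (Nppa, Myl7, Myl4, Sln, Myh6, Actc1, Tnnt2 and Tnni3) split the same way, summing to 121 to 154 FPKM in the former and to 0.87 to 1.24 FPKM in the latter, and this split is called the Nppa split below. IR and Ctrl can be compared on 1 side of this split by leaving out Ctrl replicate 1. For Ab_IR or L_IR against IR, the split and the groups cannot be told apart except through Ctrl replicate 1. For Ab_IR or L_IR against Ctrl, only Ctrl replicate 1 shares their side, so without it the split and the groups coincide. Of 10 HSC marker genes, 4 (Slamf1, Hoxb5, Fgd5 and Mecom) stayed under 1 FPKM in every library, and the list summed to 61.9 to 73.0 FPKM with overlapping ranges in Ctrl, IR and Ab_IR. Since these are bulk samples, fewer cells of a type and less RNA per cell cannot be told apart.

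In irradiated HSCs all 4 uptake genes among the 10 fell, the ferritin chains moved in opposite directions and Hmox1 rose. Summed erythroid markers, given in full later, were at 3076 to 3700 FPKM in Ctrl and at 543 to 551 FPKM in IR. Of the 10 genes, 2 were higher and 5 lower in IR than in Ctrl at an adjusted p under 0.05, and 3 did not pass. Over all 12072 genes tested, 17.5% were higher and 25.5% lower. With an absolute log2 fold change above 1 as well, 0 of the 10 were higher and 3 lower (Steap3, Slc25a37 and Tfrc), against 3.03% and 4.57% of all genes. The median log2 fold change of the 10 genes was -0.33, and that of all genes tested was -0.05. Without Ctrl replicate 1, 8 of the 10 passed, Ncoa4 being added, as did 58.4% of all genes against 43.1% with it.

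Both further irradiated groups differed from IR mostly in the opposite direction. In Ab_IR, 6 of the 10 genes were higher than in IR, 2 lower and 2 not past the threshold, where 39.4% of 12067 genes were higher and 29.4% lower. Slc11a2 and Steap3 also exceeded a log2 fold change of 1, where 5.11% of all genes did so upward and 2.46% downward. Slc11a2 was under 1 with quantile normalization (0.91) or median scaling (0.96), which left 1 gene, and Fth1 (0.98) passed 1 without IR replicate 3 (1.01) or Ab_IR replicate 3 (1.02), which made 3. In L_IR, 6 were higher than in IR, 3 lower and 1 not past the threshold, where 40.8% of 12163 genes were higher and 26.0% lower. Steap3 alone of the 10 exceeded a log2 fold change of 1, where 4.09% of all genes did so upward and 2.13% downward. The median of the 10 genes was 0.55 in Ab_IR against IR and 0.44 in L_IR against IR, beside 0.06 and 0.07 over all genes. These comparisons share the IR libraries with each other and with IR against Ctrl. With the Nppa split as a term in a fit of all 12 libraries, 8 of the 10 passed in Ab_IR against IR and 5 in L_IR against IR, where 63.6% and 56.9% of all genes did. The 8 were not the same genes, since Hmox1 was lost and Ftl1 added with its sign turned. This term is estimated from Ctrl replicate 1 against the other Ctrl libraries alone, so its values rest on the library that was unlike the rest.

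**Figure D1:**
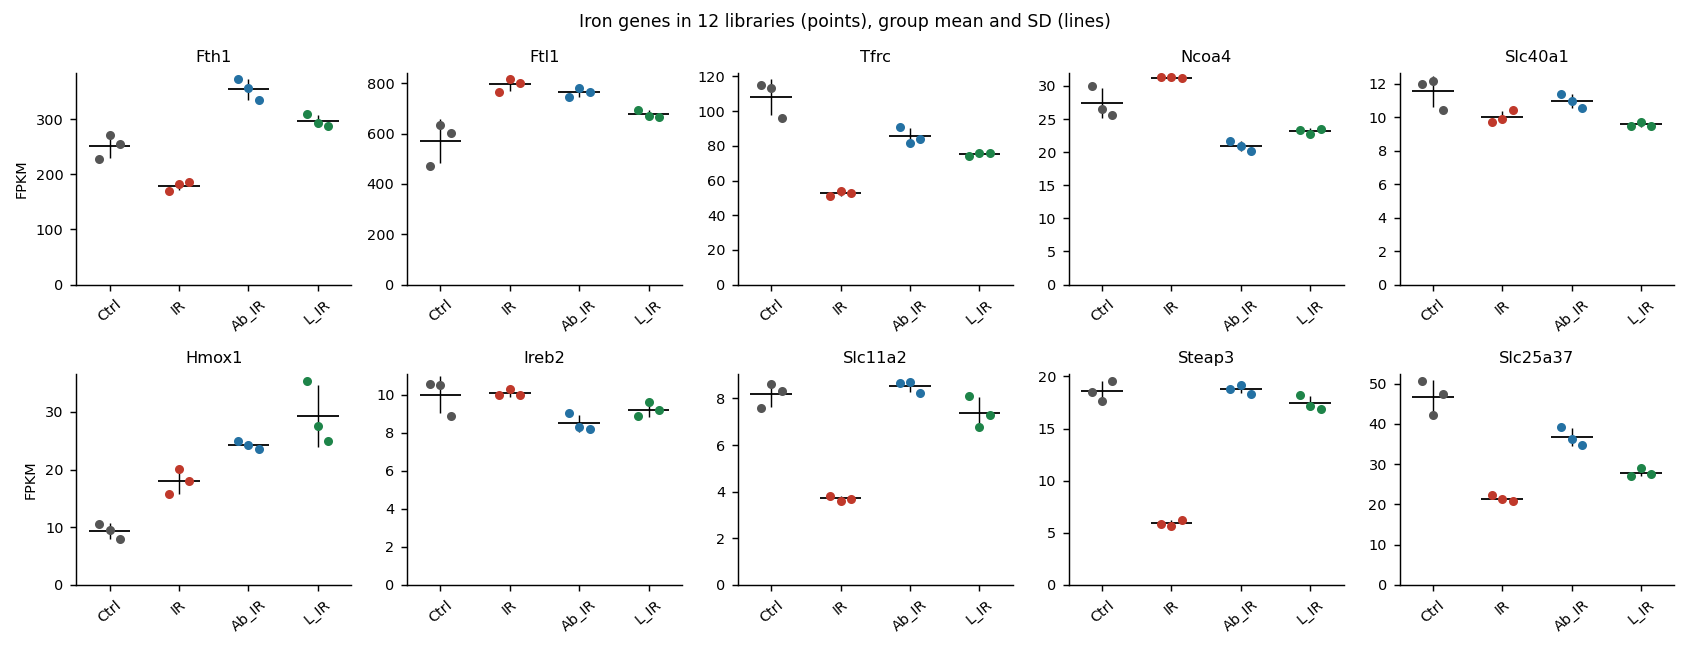
FPKM (y axis, from 0) of the 10 iron genes in each library (points) by group (x axis), with the group mean (horizontal line) and SD (vertical line), 3 libraries per group. Steap3 lay at 5.69 to 6.22 FPKM in IR and at 16.87 to 19.58 FPKM in the other 9 libraries, and Fth1 was lowest and Ncoa4 highest in IR.

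Tfrc encodes transferrin receptor 1, the main entry of transferrin-bound iron (chr16:32608920-32632794). It was listed at 115.07, 113.09 and 96.17 FPKM in Ctrl, at 51.24, 54.04 and 52.71 FPKM in IR, at 90.86, 81.64 and 83.85 FPKM in Ab_IR and at 74.15, 75.99 and 76.03 FPKM in L_IR. The 4 groups did not overlap, in the order Ctrl, Ab_IR, L_IR, IR. Tfrc fell in IR against Ctrl by 1.02 on the log2 scale (SE 0.0842, adjusted p = 2.63e-04), the IR mean being 0.487 times the Ctrl mean. Inside the Nppa split, without Ctrl replicate 1, the log2 fold change was -0.97. It was higher than in IR by 0.69 in Ab_IR (SE 0.0474, adjusted p = 1.44e-05) and by 0.51 in L_IR (SE 0.0272, adjusted p = 6.00e-06). L_IR stayed lower than Ctrl at -0.51 (adjusted p = 0.0159), a call that was lost without Ctrl replicate 2 (-0.48, adjusted p = 0.0513), without any single L_IR library (adjusted p = 0.0904 to 0.104) and with the replicate number as a block (adjusted p = 0.0626). The difference of -0.33 between Ab_IR and Ctrl did not pass (adjusted p = 0.150, 95% interval -0.56 to -0.10).

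Steap3 encodes the ferrireductase that reduces iron in the endosome after uptake (chr1:120190757-120272705, minus strand). Its values were 18.54, 17.68 and 19.58 FPKM in Ctrl, 5.83, 5.69 and 6.22 FPKM in IR, 18.78, 19.19 and 18.36 FPKM in Ab_IR and 18.17, 17.20 and 16.87 FPKM in L_IR. The 3 IR libraries lay apart at a level that no other library approached, while Ab_IR and L_IR both overlapped Ctrl. Steap3 had the largest fold change of the 10 genes in IR against Ctrl, at -1.5 (SE 0.0678, adjusted p = 3.17e-05), which was also -1.5 without Ctrl replicate 1. Ab_IR exceeded IR by 1.52 (SE 0.0440, adjusted p = 2.88e-07), and L_IR did so by 1.41 (SE 0.0439, adjusted p = 6.00e-07). Against Ctrl, the difference was 0.01 in Ab_IR (95% interval -0.15 to 0.18, adjusted p = 0.911) and -0.09 in L_IR (95% interval -0.25 to 0.07, adjusted p = 0.452), neither interval reaching the fall seen in IR.

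Slc11a2 encodes DMT1, the transporter that moves reduced iron out of the endosome (chr15:100387898-100425072, minus strand). It lay at 7.59, 8.61 and 8.32 FPKM in Ctrl, at 3.83, 3.62 and 3.68 FPKM in IR, at 8.67, 8.72 and 8.24 FPKM in Ab_IR and at 8.10, 6.77 and 7.30 FPKM in L_IR. As for Steap3, IR was lower than every other library, and the ranges of Ab_IR and L_IR each overlapped that of Ctrl. The log2 fold change was -0.96 in IR against Ctrl (SE 0.0713, adjusted p = 1.76e-04), 1.02 in Ab_IR against IR (SE 0.0442, adjusted p = 1.58e-06) and 0.83 in L_IR against IR (SE 0.0623, adjusted p = 3.03e-05). Values on the log2(FPKM + 1) scale understate the change of a gene at this level, and the plain ratio of IR to Ctrl means was 0.454. Between Ab_IR and L_IR the difference of 0.19 missed the threshold (adjusted p = 0.0519) and passed without L_IR replicate 1 (0.25, adjusted p = 0.0208).

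Slc25a37 encodes mitoferrin 1, the carrier that brings iron into mitochondria (chr14:69241848-69285112, minus strand). It was listed at 50.59, 42.20 and 47.51 FPKM in Ctrl, at 22.25, 21.29 and 20.73 FPKM in IR, at 39.26, 36.21 and 34.81 FPKM in Ab_IR and at 27.16, 28.95 and 27.68 FPKM in L_IR. The 4 groups did not overlap, and L_IR lay nearer to IR than to Ctrl. Slc25a37 fell by 1.09 on the log2 scale in IR against Ctrl (SE 0.0813, adjusted p = 1.78e-04), and the value without Ctrl replicate 1 was -1.03. Ab_IR lay 0.75 above IR (adjusted p = 1.52e-05) and L_IR 0.37 above it (adjusted p = 1.31e-04), the latter not passing with the Nppa split as a term (0.20, adjusted p = 0.126). L_IR remained below Ctrl at -0.72 (SE 0.0818, adjusted p = 0.00348), and Ab_IR exceeded L_IR by 0.38 (SE 0.0522, adjusted p = 0.00161).

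Fth1 encodes the ferritin heavy chain, which oxidises iron for storage (chr19:9980598-9985098). It was listed at 226.88, 271.55 and 255.35 FPKM in Ctrl, at 169.88, 181.51 and 186.73 FPKM in IR, at 372.0, 356.08 and 334.08 FPKM in Ab_IR and at 309.3, 293.53 and 288.38 FPKM in L_IR. The groups did not overlap, IR being lowest and Ab_IR highest, with L_IR also above Ctrl. Fth1 fell in IR against Ctrl by 0.48 on the log2 scale (SE 0.0875, adjusted p = 0.00587), and the value without Ctrl replicate 1 was -0.55. Ab_IR exceeded IR by 0.98 (SE 0.0532, adjusted p = 4.73e-06), L_IR exceeded IR by 0.73 (SE 0.0427, adjusted p = 9.47e-06), and Ab_IR exceeded L_IR by 0.25 (SE 0.0504, adjusted p = 0.00781). The mean of Ab_IR was 1.41 times that of Ctrl, a log2 difference of 0.50 that did not pass (adjusted p = 0.0636). It passed without Ctrl replicate 1 (0.42, adjusted p = 0.0175), in a fit of all 12 libraries (0.50, adjusted p = 0.00168) and with the Nppa term (0.64, adjusted p = 4.63e-05). Without Ctrl replicate 1, Ab_IR against Ctrl cannot be told apart from the Nppa split.

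Ftl1 encodes the ferritin light chain, which aids the forming of the iron core (chr7:45457944-45459884, minus strand), and was the most abundant of the 10 genes in all 12 libraries. It lay at 470.36, 635.36 and 601.03 FPKM in Ctrl, at 766.45, 818.23 and 802.13 FPKM in IR, at 744.13, 780.31 and 766.75 FPKM in Ab_IR and at 694.81, 670.1 and 664.61 FPKM in L_IR. Every irradiated library exceeded every Ctrl library, and IR overlapped Ab_IR. Unlike Fth1, Ftl1 rose in IR against Ctrl, by 0.49 on the log2 scale (SE 0.125, adjusted p = 0.0202), which was 0.36 without Ctrl replicate 1 (adjusted p = 0.00108). The call was lost without any single IR library (adjusted p = 0.0597 to 0.0792) and with no filter on low values (adjusted p = 0.0839). L_IR was lower than IR by 0.23 (log2 fold change -0.23, SE 0.0327, adjusted p = 6.69e-04), a call lost in a fit of all 12 libraries (adjusted p = 0.0659), whereas Ab_IR differed from IR by -0.06 (95% interval -0.15 to 0.03, adjusted p = 0.219), which passed under quantile normalization (-0.17, adjusted p = 0.0149) and median scaling (-0.11, adjusted p = 0.0351). With the Nppa split as a term, the L_IR value turned to 0.16 (adjusted p = 0.0723) and the Ab_IR value to 0.33 (adjusted p = 0.00176), so the direction of Ftl1 between IR and these groups changed with that term. A further 5 rows named for ferritin copies reached at most 9.0 FPKM, so reads shared with copies could move the ferritin values, and Ftl1-ps1 stood at 0.889% to 1.22% of Ftl1.

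Ncoa4 encodes the cargo receptor of ferritinophagy (chr14:32159865-32179855). It was listed at 30.04, 26.55 and 25.66 FPKM in Ctrl, at 31.33, 31.30 and 31.17 FPKM in IR, at 21.64, 20.94 and 20.15 FPKM in Ab_IR and at 23.30, 22.78 and 23.56 FPKM in L_IR. The order was the reverse of that of Fth1, with IR highest and Ab_IR lowest, and the groups did not overlap. The difference of 0.19 between IR and Ctrl missed the threshold (SE 0.0732, adjusted p = 0.0838) and passed without Ctrl replicate 1 (0.25, adjusted p = 0.00289). Against IR, Ncoa4 was lower in Ab_IR at -0.56 (SE 0.0371, adjusted p = 1.19e-05) and in L_IR at -0.41 (SE 0.0244, adjusted p = 9.44e-06). With the Nppa term, which rests on Ctrl replicate 1, the values were -0.75 (adjusted p = 3.34e-06) and -0.61 (adjusted p = 2.08e-05).

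Slc40a1 encodes ferroportin, the only known iron exporter of mammalian cells (chr1:45908068-45926523, minus strand). Its values spanned a narrow range of 9.49 to 12.18 FPKM over the 12 libraries. The group means were 11.54 ± 0.938 FPKM in Ctrl, 10.02 ± 0.364 FPKM in IR, 10.97 ± 0.435 FPKM in Ab_IR and 9.57 ± 0.13 FPKM in L_IR (SD, n = 3). None of the comparisons with IR or Ctrl passed in limma, at -0.18 for IR against Ctrl (adjusted p = 0.1), 0.12 for Ab_IR against IR (adjusted p = 0.0520), -0.06 for L_IR against IR (adjusted p = 0.176), -0.06 for Ab_IR against Ctrl (adjusted p = 0.636) and -0.24 for L_IR against Ctrl (adjusted p = 0.105). The first passed without Ctrl replicate 3 (-0.25, adjusted p = 0.0339), and the second without IR replicate 3 (0.14, adjusted p = 0.0499) or Ab_IR replicate 3 (0.15, adjusted p = 0.0359). L_IR against IR passed under quantile normalization (-0.12, adjusted p = 0.0239) and median scaling (-0.13, adjusted p = 0.0153). L_IR against Ctrl passed in a fit of all 12 libraries (adjusted p = 0.0141), with the Nppa term (-0.30, adjusted p = 0.00841) and without Ctrl replicate 3 on the genes of the full fit (-0.31, adjusted p = 0.0495).

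Hmox1 encodes heme oxygenase 1, which frees iron from heme and is induced by heme and oxidative stress (chr8:75093621-75100589). It lay at 10.65, 9.50 and 7.98 FPKM in Ctrl, at 15.79, 20.11 and 17.97 FPKM in IR, at 24.98, 24.32 and 23.58 FPKM in Ab_IR and at 35.30, 27.60 and 24.91 FPKM in L_IR. Every irradiated library exceeded every Ctrl library, and Hmox1 was the only one of the 10 genes to lie farther from Ctrl than IR did, in the same direction, with the difference from IR past the threshold in both Ab_IR and L_IR. The rise against Ctrl was 0.87 on the log2 scale in IR (SE 0.126, adjusted p = 0.00245), 1.29 in Ab_IR (SE 0.105, adjusted p = 0.00232) and 1.54 in L_IR (SE 0.152, adjusted p = 0.00192). Ab_IR exceeded IR by 0.42 (adjusted p = 0.00239), and L_IR exceeded it by 0.67 (adjusted p = 0.00391). Neither passed with the Nppa split as a term (0.16, adjusted p = 0.541, and 0.40, adjusted p = 0.135). Ab_IR and L_IR overlapped, and their difference of -0.24 did not pass (adjusted p = 0.129) unless L_IR replicate 3 was left out (-0.35, adjusted p = 0.0451).

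Ireb2 encodes iron regulatory protein 2, one of the proteins that bind the IRE (chr9:54863789-54912530). It was listed at 10.60, 10.54 and 8.88 FPKM in Ctrl, at 9.98, 10.29 and 10 FPKM in IR, at 9.03, 8.32 and 8.2 FPKM in Ab_IR and at 8.87, 9.62 and 9.21 FPKM in L_IR. IR lay within the range of Ctrl, with a difference of 0.01 (95% interval -0.18 to 0.21, adjusted p = 0.902). Ab_IR and L_IR each lay below IR without overlap, at -0.22 (SE 0.0464, adjusted p = 0.00394) and -0.12 (SE 0.0377, adjusted p = 0.0292). The L_IR call was lost when any of 5 of the 6 libraries was left out, with adjusted p from 0.0560 to 0.0879, L_IR replicate 2 being the exception, and also in a fit of all 12 libraries (adjusted p = 0.182) and with the Nppa term (-0.24, adjusted p = 0.0874).

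**Figure D2:**
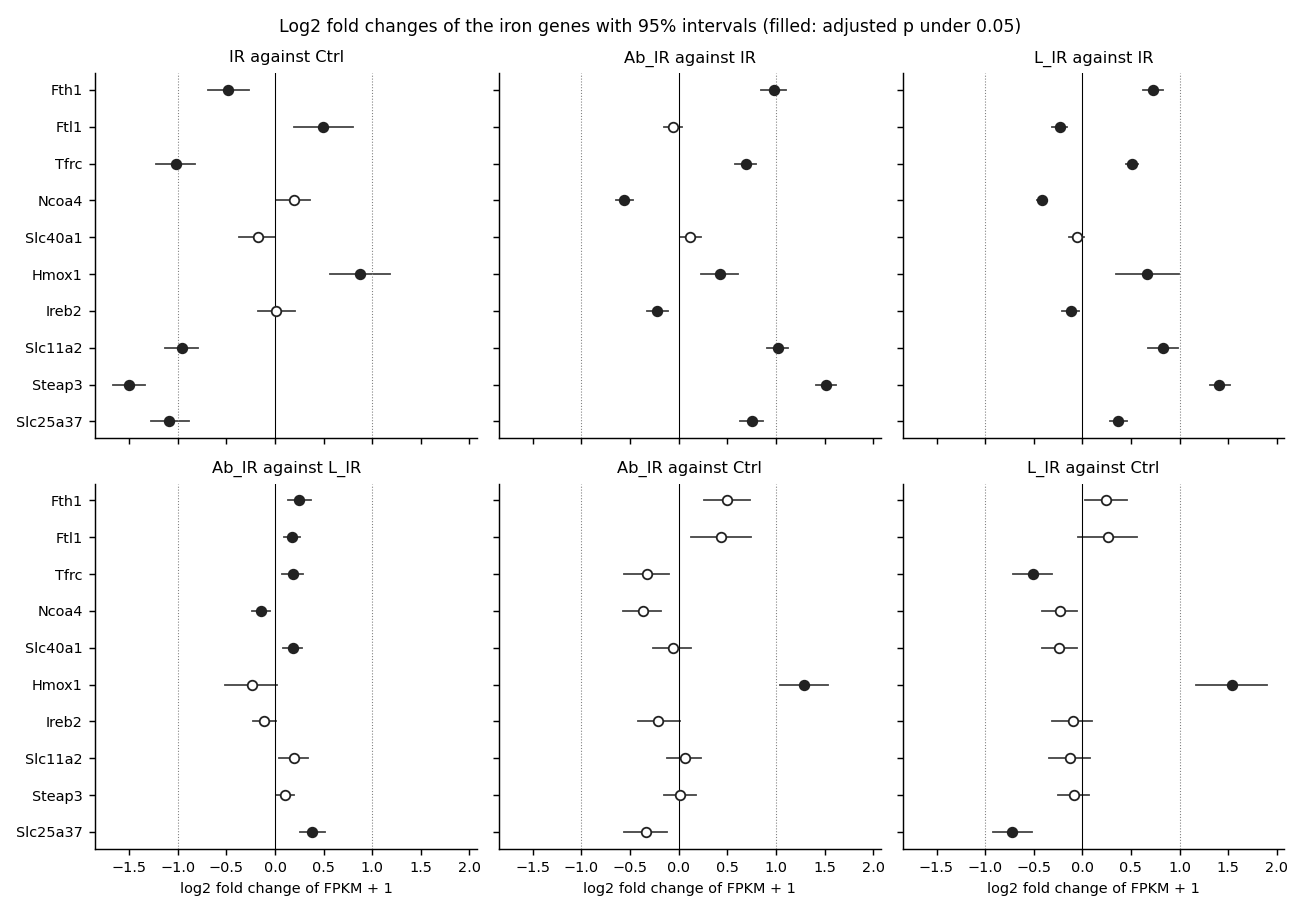
Log2 fold change of FPKM + 1 (x axis) of the 10 iron genes (y axis) in the 6 comparisons of groups, with 95% intervals of the limma fit (horizontal lines). Filled points passed an adjusted p under 0.05 and dotted lines mark an absolute log2 fold change of 1. Steap3 had the largest change in IR against Ctrl (-1.5) and lay near 0 in Ab_IR and L_IR against Ctrl, where Hmox1 was highest (1.29 and 1.54).

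Against Ctrl, few of the 10 genes passed in the further irradiated groups. In Ab_IR, 1 was higher (Hmox1), 0 lower and 9 did not pass, where 1.45% of 12134 genes were higher and 0.651% lower. Hmox1 also exceeded a log2 fold change of 1, as did 0.692% of all genes upward. In L_IR, Hmox1 was higher, Tfrc and Slc25a37 were lower and 7 did not pass, where 4.76% of 12251 genes were higher and 4.08% lower. Hmox1 was the only one of the 10 above a log2 fold change of 1, where 2.03% of all genes were so upward and 0.620% downward. The spread within Ctrl enters these counts. Without Ctrl replicate 1, 4 of the 10 passed in Ab_IR against Ctrl, where 5.65% of all genes passed against 2.10% with that library. Ftl1 (0.30, adjusted p = 0.0382) and Ncoa4 (-0.31, adjusted p = 0.0372) were added beside Fth1. Without that library, Ctrl and Ab_IR lie on opposite sides of the Nppa split, so the added calls cannot be told apart from the split. In a fit of all 12 libraries 6 of the 10 passed in each comparison, where 19.3% of all genes passed in Ab_IR and 21.9% in L_IR, against 2.10% and 8.84% in the fits of 2 groups.

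Between Ab_IR and L_IR, which lie on the same side of the Nppa split, 5 of the 10 genes were higher in Ab_IR, 1 was lower and 4 did not pass. Of 12194 genes, 18.2% were higher and 19.8% lower. None of the 10 exceeded a log2 fold change of 1, where 0.295% of all genes did so upward. The larger differences were those of Slc25a37 and Fth1 given above. Those of Tfrc (0.18, adjusted p = 0.0213), Slc40a1 (0.18, adjusted p = 0.0145), Ftl1 (0.17, adjusted p = 0.0105) and Ncoa4 (-0.14, adjusted p = 0.0257) were lost in a fit of all 12 libraries, where 20.2% of all genes passed against 38.0% in the fit of 2 groups. They were also lost without L_IR replicate 3, which left 3 of the 10 past the threshold, Hmox1 being added to Slc25a37 and Fth1.

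Ratios of 2 genes within a library do not depend on the scaling between libraries. The Fth1 to Ftl1 ratio was 0.482, 0.427 and 0.425 in Ctrl and 0.222, 0.222 and 0.233 in IR. It was 0.5, 0.456 and 0.436 in Ab_IR and 0.445, 0.438 and 0.434 in L_IR. The heavy chain thus stood lowest against the light chain in the 3 IR libraries, and the other 3 groups overlapped. The log2 difference was -0.98 in IR against Ctrl, 1.04 in Ab_IR against IR and 0.96 in L_IR against IR, each at an exact permutation p of 0.1 (two-sided), the lowest that 3 libraries against 3 allow. Against Ctrl it was 0.06 in Ab_IR (exact p = 0.5) and -0.02 in L_IR (exact p = 1).

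The Ncoa4 to Fth1 ratio, ferritinophagy receptor against heavy chain, was 0.11 ± 0.0193 in Ctrl, 0.175 ± 0.00895 in IR, with 0.0591 ± 0.0011 in Ab_IR and 0.0782 ± 0.00323 in L_IR (SD, n = 3). No groups overlapped. The log2 difference was 0.67 in IR against Ctrl, -1.54 in Ab_IR against IR and -1.14 in L_IR against IR, and it was -0.87 in Ab_IR and -0.47 in L_IR against Ctrl (exact permutation p = 0.1 each). Both further irradiated groups therefore lay on the far side of Ctrl from IR. The Tfrc to Fth1 ratio, uptake receptor against heavy chain, was 0.433 ± 0.0669 in Ctrl, 0.294 ± 0.0102 in IR, with 0.242 ± 0.0111 in Ab_IR and 0.254 ± 0.0127 in L_IR (SD, n = 3). It was lower than in Ctrl in every irradiated library, by -0.54 in IR, -0.83 in Ab_IR and -0.75 in L_IR on the log2 scale (exact permutation p = 0.1 each). Over the 18 ratio comparisons made, 14 stood at the smallest p, which is 0.129 after Benjamini-Hochberg adjustment, so none could pass 0.05. The smallest p says only that the groups did not overlap, and how often other gene pairs did so was not counted. All the ratios hold Fth1 and use the same libraries.

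**Figure D3:**
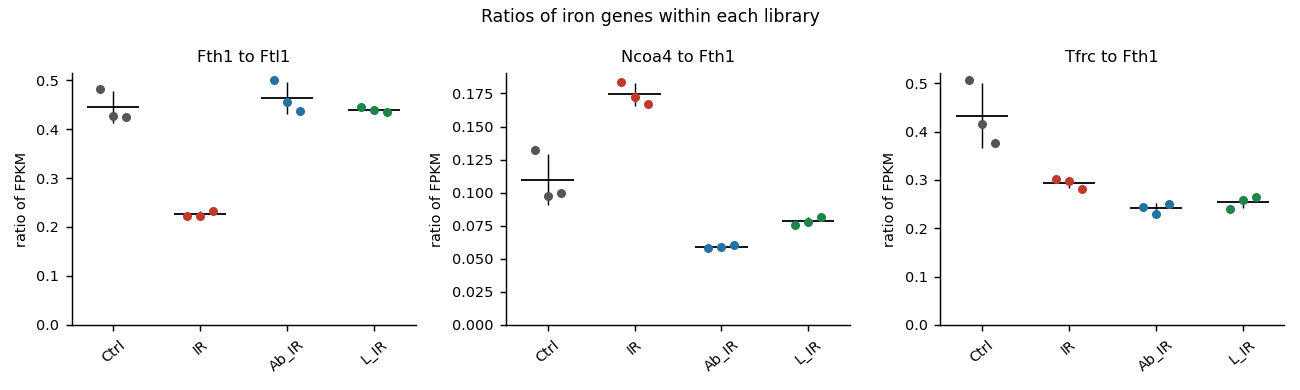
Ratio of FPKM (y axis, from 0) of 2 iron genes within each library (points) by group (x axis), with group mean (horizontal line) and SD (vertical line), 3 libraries per group. The Fth1 to Ftl1 ratio lay at 0.222 to 0.233 in IR and at 0.425 or above elsewhere, and the Ncoa4 to Fth1 ratio was highest in IR and lowest in Ab_IR.

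The members with a match to the searched IRE form did not share a direction. The other members, Slc11a2 among them, had no match, which does not show that they lack an IRE. In IR against Ctrl, of the 3 with the element in the 5′ UTR, Fth1 fell, Ftl1 rose and Slc40a1 did not pass, and Tfrc with the element in the 3′ UTR fell. These are levels of mRNA, and translation was not measured.

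A wider list of 49 iron genes was read beside the 10, of which 45 had rows and 33 passed the filter on low values in at least 1 comparison. In IR against Ctrl, 6 of the 33 were higher, 13 lower and 14 did not pass, with a median log2 fold change of -0.19, beside 17.5% higher, 25.5% lower and a median of -0.05 over all genes. In Ab_IR against IR 17 were higher and 8 lower with a median of 0.21, beside 39.4%, 29.4% and 0.06 over all genes. In L_IR against IR 18 were higher and 8 lower with a median of 0.14, beside 40.8%, 26.0% and 0.07. The shares higher in IR and lower in the further groups were thus near those of all genes. Of 13 genes of heme and mitochondrial iron tested, 7 fell in IR and 0 rose, where 25.5% and 17.5% of all genes did, and the subgroups were not tested against each other. Among them were Blvrb, Flvcr1, Slc25a28, Abcb10, Nfs1 and Lyrm4, each of which was higher than IR in Ab_IR and in L_IR. Uptake and reduction genes split, with Tfr2, Slc39a8 and Mcoln1 lower in IR than in Ctrl and Slc39a14, Steap4 and Lcn2 higher. Of those higher in IR, Lcn2 alone was over 1 FPKM in both groups. In every comparison with IR, Slc39a14 and Steap4 passed the filter only through IR, and Pcbp3 only through the other group. The directions of Slc39a14, Steap4 and Pcbp3 were thus tied to the filter, and these genes are included in the counts above. Of the genes listed for release, Cp, Heph, Hephl1 and Hamp did not pass the filter and Hamp2 was not analysed here.

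Of these 33 genes, 7 passed with an absolute log2 fold change above 1 in some comparison, as did 11.4% of the 12635 gene names tested in any. Steap4 and Pcbp3, among the 7, passed the filter in those comparisons only through the group where they were higher. How many of all genes did so was not counted. Lcn2, which encodes the siderophore-binding protein lipocalin 2 and is abundant in neutrophil granules, was listed at 59.93 to 85.79 FPKM in Ctrl, 330.46 to 332.8 FPKM in IR, 90.98 to 93.89 FPKM in Ab_IR and 23.86 to 24.46 FPKM in L_IR. It rose by 2.14 in IR against Ctrl (SE 0.136, adjusted p = 9.78e-05) and was below IR by 3.73 in L_IR (log2 fold change -3.73, adjusted p = 9.75e-10), lower there than in Ctrl at -1.59 (adjusted p = 0.00102). Blvrb, a biliverdin reductase of heme breakdown that red cells hold in quantity, fell from 46.26 ± 6.29 FPKM in Ctrl to 7.333 ± 0.53 in IR and stood at 52.04 ± 3.99 in Ab_IR and 34.74 ± 1.84 in L_IR (SD, n = 3). Its log2 fold change was -2.50 in IR against Ctrl (SE 0.113, adjusted p = 3.17e-05).

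Tfr2, transferrin receptor 2, fell from 14.97 to 16.68 FPKM in Ctrl to 3.16 to 3.68 FPKM in IR (-1.96, SE 0.0792, adjusted p = 2.33e-05). Abcb10, a mitochondrial transporter needed for heme synthesis that is known to stabilise mitoferrin 1, fell from 32.55 ± 0.864 to 12.58 ± 0.536 FPKM (SD, n = 3; -1.31, adjusted p = 3.17e-05). Both were higher than IR in Ab_IR and L_IR, as was the iron chaperone Pcbp3, which lay at 2.203 ± 0.126 FPKM in Ctrl and 0.5667 ± 0.0737 in IR (SD, n = 3). Fbxl5, the ubiquitin ligase subunit that has iron regulatory proteins degraded when iron is present, went the other way. It lay at 4.02, 5.01 and 4.51 FPKM in Ctrl, 10.5, 10.66 and 10.93 FPKM in IR, 4.14, 4.13 and 4.32 FPKM in Ab_IR and 4.06, 4.39 and 4.34 FPKM in L_IR. Its rise in IR was 1.09 (SE 0.0828, adjusted p = 1.92e-04). The mRNA of Ireb2 stayed within the Ctrl range in IR, and the level of its protein, which Fbxl5 targets, was not measured. Steap4, a metalloreductase, was at 2.28 to 2.62 FPKM in IR and under 1 FPKM in all other libraries.

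**Figure D4:**
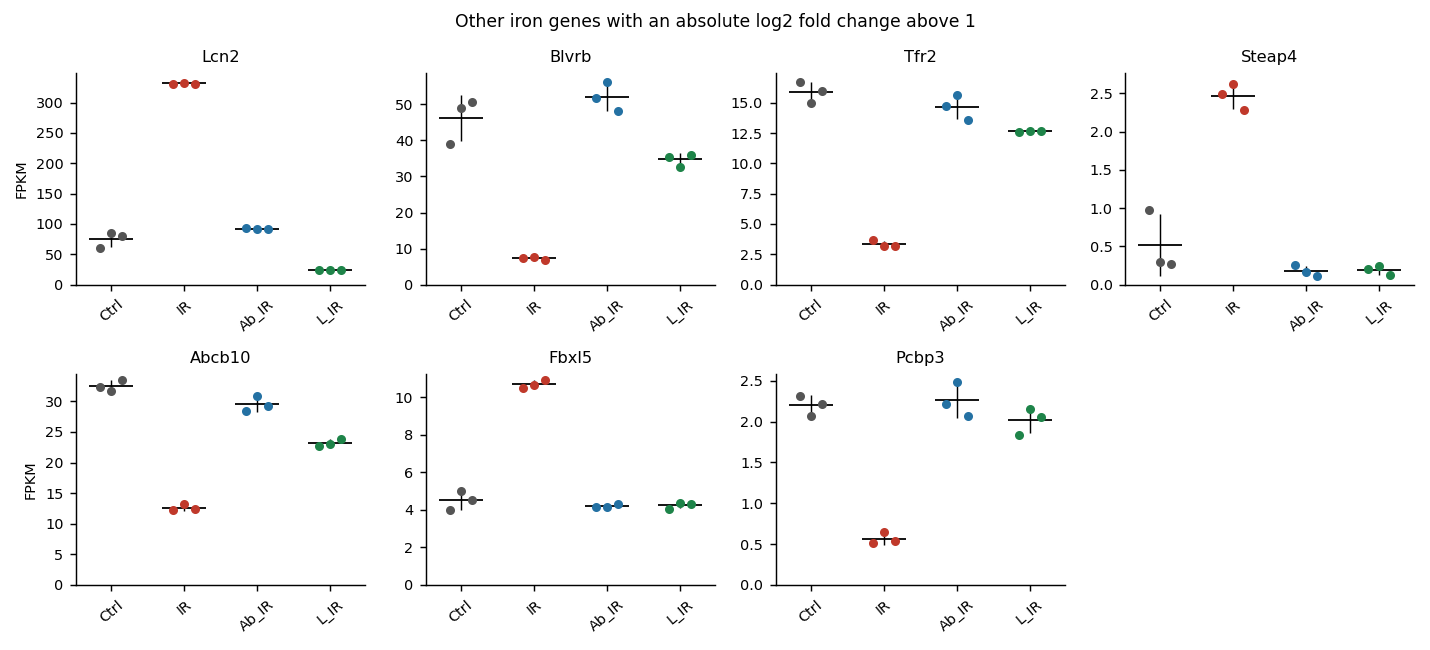
FPKM (y axis, from 0) of the 7 further iron genes that exceeded an absolute log2 fold change of 1, in each library (points) by group (x axis), with group mean (horizontal line) and SD (vertical line). Lcn2, Steap4 and Fbxl5 were highest in IR, and Blvrb, Tfr2, Abcb10 and Pcbp3 were lowest there.

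Markers of other cell types moved with the groups. Per the study's methods, the lineage antibodies were directed at T cell, B cell, granulocyte, macrophage and erythroid antigens, so the sort would remove mature cells of these kinds. Erythroid precursors use much iron and are known for high Tfrc, Steap3 and Slc25a37. Of 12 erythroid markers, 11 had rows, none stayed under 1 FPKM in all libraries, and they summed to 3076 to 3700 FPKM in Ctrl, 543 to 551 FPKM in IR, 3242 to 3391 FPKM in Ab_IR and 1627 to 1684 FPKM in L_IR. This list was thus lowest in IR, as were Tfrc, Steap3, Slc11a2, Slc25a37, Blvrb, Tfr2 and Abcb10, and the order Ctrl or Ab_IR, then L_IR, then IR was also that of Tfrc, Slc25a37, Blvrb, Tfr2 and Abcb10. Steap3 and Slc11a2 in L_IR overlapped Ctrl, while the erythroid list in L_IR did not.

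Macrophages recycle red cell iron and are known for Hmox1 and Slc40a1. The 12 macrophage markers summed to 83.9 to 91.2 FPKM in Ctrl, 52.2 to 59.1 FPKM in IR, 92.8 to 99.7 FPKM in Ab_IR and 86.1 to 94.6 FPKM in L_IR, with Timd4 under 1 FPKM throughout. The sum was lower in IR than in Ctrl, and most of it came from C1qa, C1qb, Csf1r, Vcam1 and Adgre1. Single markers went other ways. Mrc1 lay at 3.11 to 3.25 FPKM in Ctrl and 5.42 to 6.35 FPKM in IR. Siglec1 lay at 0.65 to 0.9 FPKM in Ctrl, 1.2 to 1.91 FPKM in IR, 2.46 to 2.59 FPKM in Ab_IR and 2.91 to 4.27 FPKM in L_IR. The 11 neutrophil and monocyte markers summed to 11325 to 13161 FPKM in Ctrl, 16533 to 16807 FPKM in IR, 12290 to 12894 FPKM in Ab_IR and 9080 to 9309 FPKM in L_IR. Its members did not move as one. S100a8, S100a9, Ltf, Ngp and Ctsg lay above the Ctrl range in IR, S100a9 most in FPKM at 1109.19 to 1813.68 in Ctrl and 3572.8 to 3863.53 in IR. Mpo, Elane, Prtn3, Camp and Lyz2 stayed within the Ctrl range in IR, and Ly6c2 lay below it, at 148.46 to 174.27 FPKM in Ctrl and 33.98 to 37.35 FPKM in IR. B and plasma cell markers summed to 10101 to 13327 FPKM in Ctrl, 17553 to 18799 FPKM in IR, 17979 to 18610 FPKM in Ab_IR and 25752 to 26630 FPKM in L_IR, and megakaryocyte and platelet markers to 51.4 to 67.5, 12 to 14, 136 to 140 and 83.6 to 89.2 FPKM. The part of these cells in the levels of the iron genes was not tested.

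**Figure D5:**
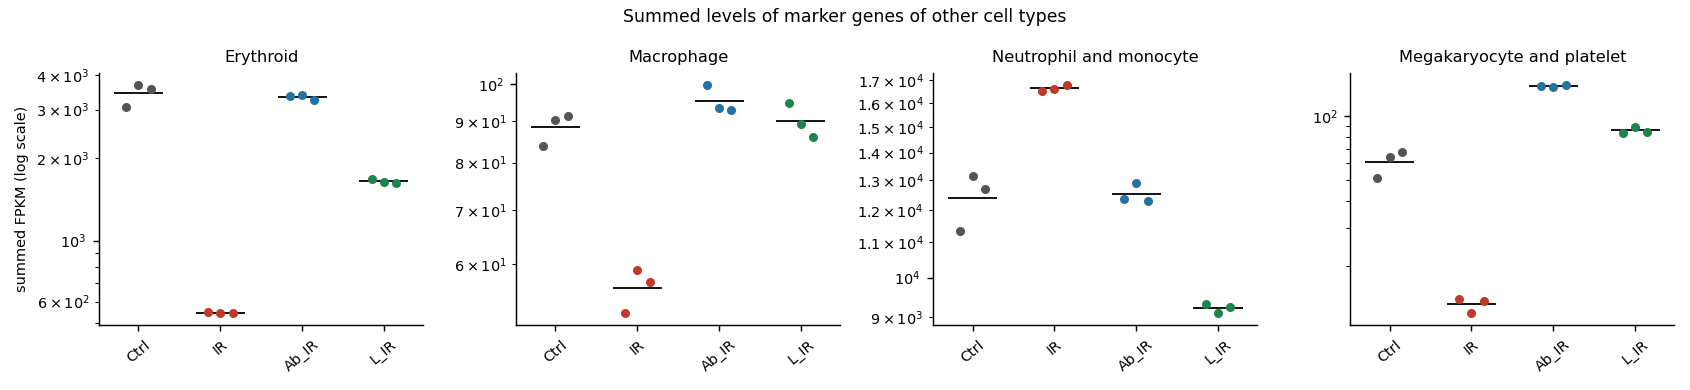
Summed FPKM (y axis, log scale) of marker genes of 4 other cell types in each library (points) by group (x axis), with the group mean (line), 3 libraries per group. The erythroid list lay at 543 to 551 FPKM in IR and at 1627 FPKM or above in the other 9 libraries.

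Genes most like each member in pattern were sought over the 12 libraries among the 4753 genes whose mean reached 10 FPKM, by the mean absolute difference of log2 levels centred on each gene's own mean. Nearest to Fth1 were Necap2 (0.0693), Cst3 (0.0747) and Haus4 (0.0809), where the mean absolute deviation of Fth1 from its own mean was 0.314. This deviation was 0.168 for Ftl1, 0.299 for Tfrc, 0.197 for Ncoa4, 0.0911 for Slc40a1 and 0.508 for Hmox1, and the distances grow with it. Nearest to Ftl1 were Ppp4c (0.0416), Ran (0.0458) and Ube2m (0.0473), and nearest to Tfrc were Ugcg (0.05), Srsf5 (0.057) and Hnrnpdl (0.0633). Ncoa4 lay nearest to Canx (0.0465) and Larp4b (0.0488), and Slc40a1 to Sdcbp (0.0363), Prkar1a (0.037) and Sinhcaf (0.0392). Nearest to Hmox1 were the immunoglobulin rows Iglc3 (0.164) and Igkj2 (0.182) and then Dynlt1b (0.196).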

How the data were processed

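RNA was sequenced from sorted HSCs in 12 libraries, 3 per group, grouped by the titles in the labels. The study's methods name fastp for trimming, RSEM for quantification and DESeq2 for testing, while the submitters' processing notes name fastp, HISAT2, StringTie and GRCm38 (mm10). Which of them made the files cannot be told from these sources. The deposited values were read as FPKM computed by the authors. The files do not name the unit, but library sums exclude CPM and TPM, and FPKM times exon length in kb summed to 913577 to 945263, near a fixed total. No steps of whole reads were seen among low values, so neither depth nor counting intervals can be given.

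Each pair of groups was fitted on its own with limma 3.58.1 in R 4.3.3 (lmFit, then eBayes with trend) as log2(FPKM + 1). Genes entered if 3 or more of the fitted libraries reached 1 FPKM. All adjusted p-values of genes are from limma, Benjamini-Hochberg adjusted over all genes tested, with a threshold of 0.05. Fold changes are on the log2(FPKM + 1) scale. Within-library ratios were tested by two-sided exact permutation (scipy 1.17.1). Of the gene names, 96.7% matched a single GENCODE M21 gene, used for positions, lengths and UTRs. The scripts were tested on simulated data.

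The 10 genes were named in full, with those of 49 further iron genes that passed an adjusted p of 0.05 and an absolute log2 fold change of 1 in any comparison, and the 3 genes nearest in pattern to 6 of the 10, apart from names that are not reported here. Genes, lists and marker sets were chosen with earlier results of these data known. Alternatives were another pseudocount, 2 other filters, 2 scalings, no trend, all libraries in one fit, a replicate block, summed rows and leaving out each library. The Nppa term and leaving out a library on unchanged genes were chosen after seeing the data.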

Additional observations from a re-analysis of the deposited data

How the results depend on the processing

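In IR against Ctrl and Ab_IR against IR, the count of the 10 genes past the threshold stayed within 1.5 times its value under every alternative run. In a fit of all 12 libraries, 2 of 10 passed in Ab_IR against L_IR and 6 each against Ctrl. With the Nppa split as a term, 5 passed in L_IR against IR and 7 each in Ab_IR and L_IR against Ctrl, where 56.9%, 58.8% and 54.3% of all genes passed, and Ftl1 turned to 0.33 in Ab_IR and 0.16 in L_IR against IR. Leaving out 1 library gave counts of 6 to 8 in IR against Ctrl, 8 to 9 in Ab_IR against IR and in L_IR against IR, 3 to 6 in Ab_IR against L_IR, 2 to 3 in L_IR against Ctrl and 1 to 4 in Ab_IR against Ctrl. With the genes of the full fit kept, the ranges were the same except 2 to 4 in L_IR against Ctrl. Values near 0 changed sign. Ireb2 in IR against Ctrl ranged from -0.06 to 0.05 with 1 library left out, falling below 0 without Ctrl replicate 3. Steap3 in Ab_IR against Ctrl ranged from -0.02 to 0.05, lowest without Ctrl replicate 2, and was 0.00 without Ab_IR replicate 2 or with quantile normalization. The log2 Fth1 to Ftl1 ratio in L_IR against Ctrl ranged from -0.05 to 0.04, the upper value without Ctrl replicate 1. The cause of these changes was not tested.

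Samples with the same replicate number did not deviate together, with correlations of their deviations of -0.27 to 0.21, so the numbers were not taken to pair the samples. With the replicate block, 2 of 10 passed in Ab_IR against L_IR and 2 in L_IR against Ctrl, and the other 4 counts were as given. Both scalings moved the median of all genes by under 0.1. Depth is unknown, and 3 libraries a group cannot bring an exact p below 0.1.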
